A study of Mus musculus with 12 samples.

Results

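Syndecans and glypicans are the cell surface proteoglycans that carry heparan sulfate, and 8 of their genes, Sdc1, Sdc2, Sdc3, Sdc4, Gpc1, Gpc3, Gpc4 and Gpc6, were examined in mouse embryonic fibroblast (MEF) cells. They were chosen by name, as the entries with these symbols in both deposited expression tables. The table of the IDH2 mutant experiment held 43280 entries, that of the 2-HG experiment held 23930, and 20443 names occurred in both.

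RNA-seq was performed on 12 libraries in 4 groups of 3. All MEF cells came from C57BL/6 embryos of embryonic day 13.5 and had become immortal by serial passage. 2MUT cells stably expressed a cancer-associated mutant of human IDH2, in which an arginine is replaced by serine, from a retroviral vector with drug selection, and Control cells carried the mock vector. 2-HG(+) cells were exposed to 300 μM of octyl-(R)-2HG, a membrane-permeant form of 2-HG, for 24 h, and 2-HG(-) cells are labelled as given the solvent DMSO for 24 h, although the methods of the study describe cells without 2-HG. The comparisons ask whether the mutant enzyme, and the metabolite that it makes from α-ketoglutarate, altered expression of these genes. The labels name no separate lines or cultures behind the libraries, so the p-values measure the spread between these libraries, which may be technical. Values are in RPM, the reads of a gene for every 1000000 reads that were counted, from short amplified targets, so levels were not compared between genes. The methods of the study do not state the number of targets per gene, or whether the tables share their targets. In bulk RNA, fewer cells of a type and less RNA per cell cannot be told apart.

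Heparan sulfate is a long, sulfated sugar chain, and at the cell surface it binds growth factors, chemokines, Wnt proteins and matrix proteins and presents them to their receptors. Syndecans span the membrane, and their short cytoplasmic tails bind scaffold proteins and link the matrix to the actin cytoskeleton. Glypicans are held by a lipid anchor (GPI) in the outer leaflet and are known as modulators of Wnt, hedgehog, BMP and FGF signals. Fibroblasts are known to use Sdc4, together with integrins, to build focal adhesions on fibronectin.

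The cytoplasmic tail is the part that the syndecans share, and it is also where the reads of one could match another, so the last 37 codons before the stop codon are shown. The sequences are from GENCODE M21 transcripts on GRCm38, 5′ to 3′, and capitals mark runs of at least 15 bases that occur in the same form in the tail of another syndecan.
Sdc1: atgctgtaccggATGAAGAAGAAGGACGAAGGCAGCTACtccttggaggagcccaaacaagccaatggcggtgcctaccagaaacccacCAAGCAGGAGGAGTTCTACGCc
Sdc2: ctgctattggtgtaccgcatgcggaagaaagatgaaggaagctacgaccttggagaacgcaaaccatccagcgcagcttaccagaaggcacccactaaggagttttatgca
Sdc3: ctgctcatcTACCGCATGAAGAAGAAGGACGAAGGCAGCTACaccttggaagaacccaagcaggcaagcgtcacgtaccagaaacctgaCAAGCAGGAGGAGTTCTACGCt
Sdc4: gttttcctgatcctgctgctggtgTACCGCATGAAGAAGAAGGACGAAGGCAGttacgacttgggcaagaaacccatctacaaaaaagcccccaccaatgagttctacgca
Sdc2 had no run of this length in common with the others. The longest shared run was 29 bases, between Sdc3 and Sdc4, and that between Sdc1 and Sdc3 was 27 bases. The final 12 bases, which encode the end of the tail that binds PDZ domain proteins such as syntenin, were identical at 9 to 11 positions in each pair.

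Among the glypicans, Gpc4 and Gpc6 were the closest pair, with 65.4% of aligned coding positions identical, against 58.6% for Gpc1 and Gpc6 and 48.1% to 49.8% for the pairs with Gpc3. Their longest common run, 17 bases in capitals, is shown within coding bases 452 to 532 of each gene.
Gpc4: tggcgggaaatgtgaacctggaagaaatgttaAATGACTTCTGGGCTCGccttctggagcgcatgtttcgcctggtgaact
Gpc6: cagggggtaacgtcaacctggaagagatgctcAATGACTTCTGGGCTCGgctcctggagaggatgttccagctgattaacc
Stretches of 25 identical bases were found in 2 of the 28 pairs of the 8 coding sequences, Sdc1 with Sdc3 and Sdc3 with Sdc4, and these stretches all lie in the tails above. The positions of the amplified targets were not used here, and whether any lies in a tail is not known here.

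Depth was 6472439 to 7313602 reads per library in the IDH2 mutant experiment and 14959318 to 18363768 in the 2-HG experiment. Control library 3 stood apart, since 67 of 7575 genes (those with at least 10 RPM in the other Control libraries) were there at under 0.25 times the lower of these libraries, against 0 to 11 genes in each other library, and no member was among them. Of 10 fibroblast markers, 9 had a mean of at least 1 RPM in each experiment, and Lum was at or below 1.57 RPM throughout. The fibroblast markers summed to 15040 to 17010 RPM in Control and 13378 to 13822 RPM in 2MUT libraries, where 1 of 9 was higher and 7 were lower. They summed to 21646 to 23290 RPM in 2-HG(-) and 15256 to 16280 RPM in 2-HG(+) libraries, where 1 was higher and 5 were lower. Their part in the members' values was not tested. Epithelial and endothelial markers summed to at most 3.09 RPM, with Epcam and Krt18 at 0, and macrophage markers to at most 14.6 RPM, most of it Cd68. The macrophage sums were 12.2 to 14.6 RPM in 2-HG(-) and 8.86 to 11.0 RPM in 2-HG(+), where Cd68 was lower (-0.51, limma adjusted p = 0.021) and Ptprc was at 0, and their part in the members' values was not tested either. Mouse Idh2 was 77.3 ± 5.54 RPM in Control and 49.6 ± 6.39 in 2MUT (SD, n = 3), but the transgene is human, so this does not check the labels.

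In 2MUT cells, Gpc1, Gpc4, Gpc6 and Sdc4 were higher than in Control and Sdc2 was lower, while Sdc1 and Sdc3 did not pass the test. With 2-HG, Gpc1 was again higher and Sdc2 again lower, but Sdc3, Sdc4, Gpc4 and Gpc6 were lower, and Sdc1 did not pass. Thus the directions in 2MUT cells and with 2-HG were the same for Sdc2 and Gpc1, and opposite for Sdc4, Gpc4 and Gpc6. The calls for Sdc4 in each experiment and for Gpc6 with 2-HG were each lost in 5 of 6 fits without 1 library. No library came from cells with wild-type human IDH2, so the mutation, the added protein and differences between the lines cannot be told apart. Gpc3 had no read in any library and was not tested. Tests used limma on log2(RPM + 1) with Benjamini-Hochberg adjustment over all genes whose mean was 1 RPM or more, at an adjusted p under 0.05.

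**Figure D1:**
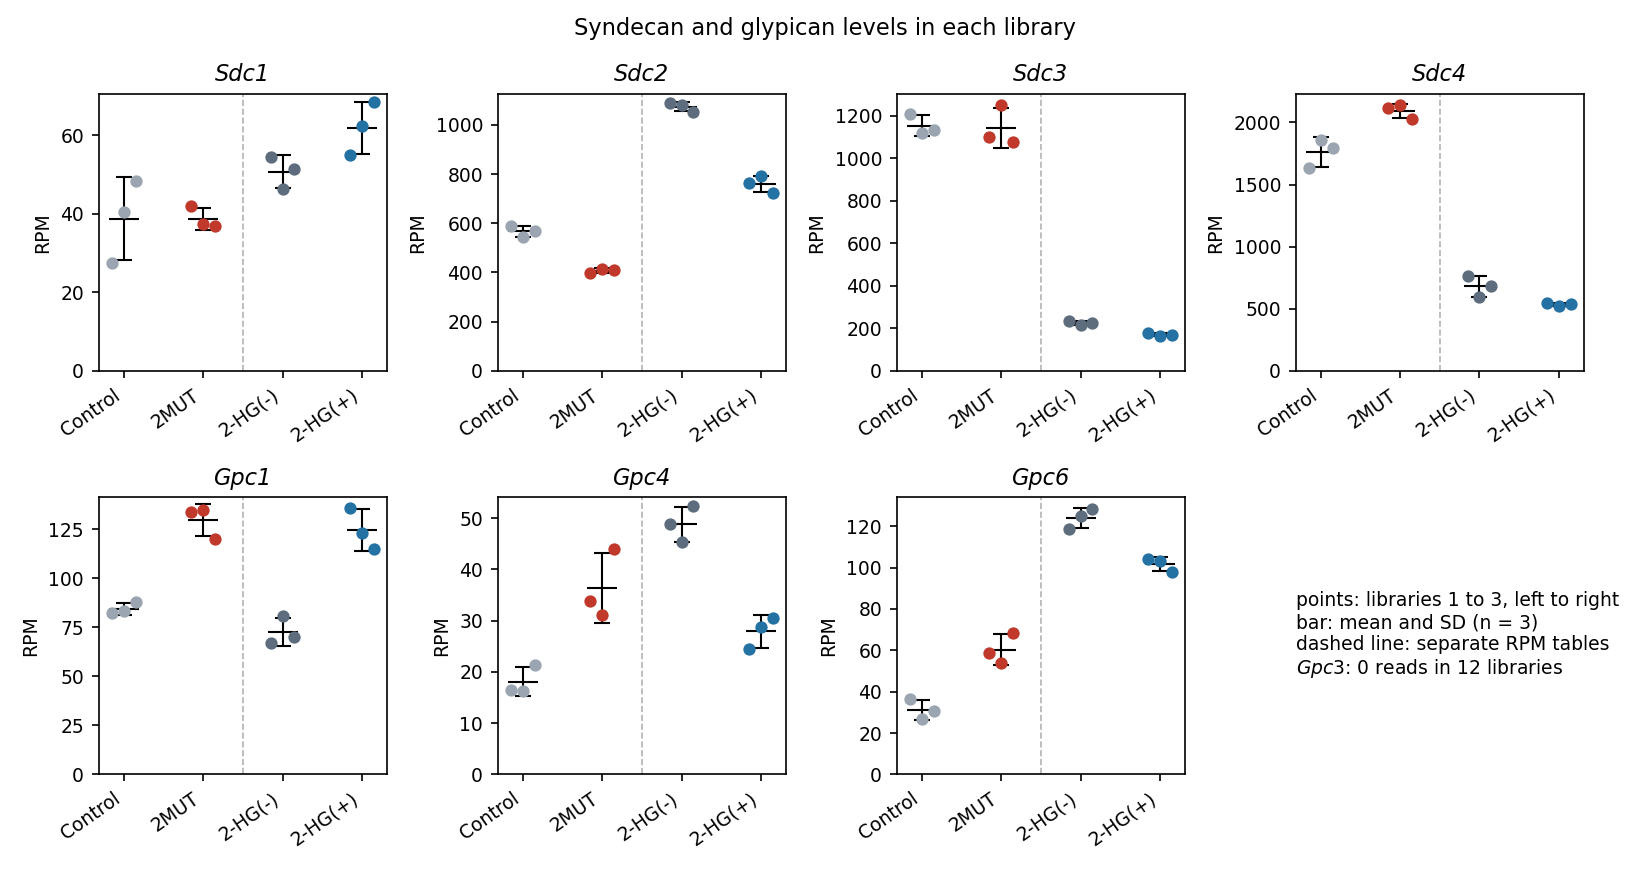
Level of each detected member in RPM (vertical axis, linear, one panel per gene) in the 12 libraries, by group. Points are libraries, bars are the mean and SD (n = 3), and the dashed line separates the 2 tables. Gpc1 libraries sat at 120.0 to 134.7 RPM in 2MUT against 82.1 to 87.9 in Control, and Gpc4 was high in 2MUT but low in 2-HG(+).

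Of 7 members tested in 2MUT against Control, 4 were higher and 1 was lower. Over all 11065 genes tested, 16.5% were higher, 17.3% lower and 33.8% changed in either direction. The 3 libraries of each group did not overlap for 5 of the 7 members, against 47.5% of all genes. In the 2-HG experiment, 1 of 7 was higher and 5 were lower, against 16.1% higher, 16.7% lower and 32.8% in either direction over 10384 genes. The count of 5 lower members was not stable, since it was 3 without 2-HG(-) 1 or 3 or 2-HG(+) 2 or 3 and 4 without 2-HG(-) 2 or 2-HG(+) 1. It was also 3 with median-of-ratios scaling and with the replicate number as a block. Groups did not overlap for 7 of 7 members there, against 46.3% of all genes. The median log2 fold change of the members was 0.25 in 2MUT and -0.33 with 2-HG, beside 0.01 and -0.02 over all genes. The members were chosen with earlier results of these data known, so these counts describe the 8 genes and are not evidence about the families.

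Sdc2 is the syndecan best known from mesenchymal cells, and it lies on chromosome 15 (32920723 to 33034935, forward strand, GRCm38). Its level was 589, 543 and 567 RPM in the Control libraries and 398, 416 and 409.9 RPM in the 2MUT libraries. All 3 2MUT libraries were below all Control libraries, and the means were 567 ± 22.8 and 408 ± 8.83 RPM (SD, n = 3), or 0.72-fold. On the log2 scale this was -0.47 (SE 0.08, 95% interval -0.65 to -0.29, limma adjusted p = 0.0013).

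With 2-HG, Sdc2 fell by a similar proportion. The values were 1088, 1080.2 and 1052 RPM in 2-HG(-) and 764, 792 and 724 RPM in 2-HG(+), with no overlap. Means were 1073 ± 19.1 and 760 ± 34.2 RPM (SD, n = 3), or 0.708-fold, and the log2 fold change was -0.50 (SE 0.09, 95% interval -0.70 to -0.30, limma adjusted p = 0.0027). The change in 2MUT minus the change with 2-HG was 0.03, with an interval of -0.21 to 0.26 (limma adjusted p = 0.87), which leaves room for a difference of that size in either direction. Sdc2 is among the genes that the study lists as altered in both experiments, in these same libraries, so its direction here is not independent evidence.

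Sdc4 is the widely expressed syndecan of focal adhesions, whose tail binds and activates protein kinase C alpha, and it lies on chromosome 2 (164424247 to 164443887, reverse strand, GRCm38). Control libraries gave 1632, 1862 and 1798 RPM and 2MUT libraries 2114, 2139 and 2029.8 RPM. The groups did not overlap, the means were 1764 ± 119 and 2094 ± 57.3 RPM (SD, n = 3), and the ratio was 1.19. The log2 fold change was 0.25 (SE 0.08, 95% interval 0.07 to 0.43, limma adjusted p = 0.039).

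With 2-HG the direction for Sdc4 was the opposite one. Its values were 760.5, 598 and 681 RPM in 2-HG(-) and 546, 525 and 538 RPM in 2-HG(+), so that the treated libraries were close together and all below the lowest 2-HG(-) library. Means were 680 ± 81.4 and 537 ± 10.6 RPM (SD, n = 3), or 0.789-fold, with a log2 fold change of -0.33 (SE 0.11, 95% interval -0.57 to -0.09, limma adjusted p = 0.038). Both calls for Sdc4 were near the threshold. The call in 2MUT was lost when Control 1 (0.19, adjusted p = 0.082), Control 3 (0.26, 0.058) or 2MUT 1, 2 or 3 (0.24, 0.23 and 0.27, adjusted p = 0.11, 0.12 and 0.074) was left out. That with 2-HG was lost without 2-HG(-) 1 or 3 (-0.25 and -0.33, adjusted p = 0.12 and 0.11) and without 2-HG(+) 1, 2 or 3 (-0.35, -0.32 and -0.34, adjusted p = 0.057, 0.11 and 0.08). Each direction remained in every such fit, and the difference between the changes, 0.58 (SE 0.14, limma adjusted p = 0.0041), passed the test throughout.

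Sdc3, known as the syndecan of the nervous system, lies on chromosome 4 (130792537 to 130826319, forward strand, GRCm38). It was at 1207, 1116 and 1134 RPM in Control and at 1099, 1249.6 and 1076 RPM in 2MUT. The 2MUT libraries spanned the Control range, with means of 1152 ± 48.3 and 1141 ± 94.5 RPM (SD, n = 3). No difference was detected, at a log2 fold change of -0.02 with a 95% interval of -0.21 to 0.18 (limma adjusted p = 0.91).

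In the 2-HG experiment, Sdc3 was at 236, 214 and 226 RPM in 2-HG(-) and at 177, 163 and 169 RPM in 2-HG(+). The groups were separate, with means of 225 ± 11.3 and 170 ± 7.08 RPM (SD, n = 3), or 0.753-fold. This was a log2 fold change of -0.41 (SE 0.09, 95% interval -0.61 to -0.21, limma adjusted p = 0.0072). Exons of the antisense genes Gm12970 and Gm26716 overlap those of Sdc3, and the sources do not state whether counting used the strand. Both antisense genes had means of at most 0.143 RPM in the table that lists them.

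Sdc1, the syndecan of epithelia and plasma cells, lies on chromosome 12 (8771323 to 8793715, forward strand, GRCm38), and no change passed the test in either experiment. Control libraries gave 27.5, 40.5 and 48.3 RPM and 2MUT libraries 41.9, 37.3 and 36.9 RPM. The 2MUT values lay inside the wide Control range, with means of 38.7 ± 10.5 and 38.7 ± 2.76 RPM (SD, n = 3). The log2 fold change was 0.03, with a 95% interval of -0.37 to 0.44 (limma adjusted p = 0.91), so a moderate change in either direction would not have been detectable.

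For 2-HG, the values of Sdc1 were 54.5, 46.3 and 51.3 RPM in 2-HG(-) and 54.9, 62.2 and 68.3 RPM in 2-HG(+). The lowest treated library was just above the highest 2-HG(-) library, and the means were 50.7 ± 4.12 and 61.8 ± 6.72 RPM (SD, n = 3). The log2 fold change was 0.28 (SE 0.12, 95% interval 0.02 to 0.54, limma adjusted p = 0.098). Without 2-HG(+) 1 it was 0.36 and passed the test (limma adjusted p = 0.042).

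Gpc1 is the common glypican of many cell types, a co-receptor for FGF and VEGF, and it was the only member that was higher in both experiments. It lies on chromosome 1 (92831645 to 92860779, forward strand, GRCm38). Levels were 82.1, 83.5 and 87.9 RPM in Control and 133.8, 134.7 and 120.0 RPM in 2MUT. The lowest 2MUT library was well above the highest Control library, and the means were 84.5 ± 3.03 and 129 ± 8.24 RPM (SD, n = 3), or 1.53-fold. As a log2 fold change this was 0.61 (SE 0.10, 95% interval 0.39 to 0.83, limma adjusted p = 0.00095).

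With 2-HG, Gpc1 was at 66.9, 80.8 and 69.9 RPM in 2-HG(-) and at 135.9, 123.1 and 114.7 RPM in 2-HG(+). Again the groups were far apart, with means of 72.5 ± 7.29 and 125 ± 10.6 RPM (SD, n = 3), or 1.72-fold, and a log2 fold change of 0.77 (SE 0.11, 95% interval 0.53 to 1.02, limma adjusted p = 0.0007). The difference between the changes was -0.16, with an interval of -0.48 to 0.15 (limma adjusted p = 0.39). Like Sdc2, Gpc1 is in the study's list of genes altered in both experiments. Exons of Ankmy1 lie on the opposite strand across those of Gpc1, and its group means were 0.11 to 0.276 RPM.

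Gpc4, known for the growth of synapses and for a form secreted by fat tissue, had the largest opposite changes among the members. It lies on chromosome X (52053021 to 52165252, reverse strand, GRCm38). In the IDH2 mutant experiment its levels were 16.6, 16.4 and 21.3 RPM in Control and 33.8, 31.0 and 44.0 RPM in 2MUT, from 112 to 320 reads per library. All 2MUT libraries were above all Control libraries, with means of 18.1 ± 2.8 and 36.3 ± 6.84 RPM (SD, n = 3), or 2.01-fold. The change was 0.96 on the log2 scale (SE 0.17, 95% interval 0.59 to 1.34, limma adjusted p = 0.0014).

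After 2-HG, Gpc4 was lower. Its values were 48.8, 45.5 and 52.3 RPM in 2-HG(-) and 24.4, 28.8 and 30.6 RPM in 2-HG(+), and the groups were again separate. Means were 48.8 ± 3.42 and 27.9 ± 3.18 RPM (SD, n = 3), or 0.572-fold, and the log2 fold change was -0.79 (SE 0.12, 95% interval -1.06 to -0.52, limma adjusted p = 0.001). The difference between the changes was 1.75 (SE 0.21, 95% interval 1.29 to 2.21, limma adjusted p = 2.7e-05).

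Gpc6, the closest relative of Gpc4 in sequence and known from the growth plate of bone, moved in the same directions as Gpc4. It lies on chromosome 14 (116925315 to 117976544, forward strand, GRCm38). Control libraries gave 36.3, 26.6 and 30.5 RPM and 2MUT libraries 58.6, 54.0 and 68.5 RPM. The groups did not overlap, with means of 31.1 ± 4.84 and 60.4 ± 7.42 RPM (SD, n = 3), or 1.94-fold, and the log2 fold change was 0.94 (SE 0.15, 95% interval 0.61 to 1.26, limma adjusted p = 0.00067).

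In the 2-HG experiment, Gpc6 was at 118.7, 124.9 and 128.4 RPM in 2-HG(-) and at 104.0, 102.9 and 97.9 RPM in 2-HG(+). The treated libraries were all lower, with means of 124 ± 4.92 and 102 ± 3.27 RPM (SD, n = 3), or 0.819-fold. The log2 fold change was -0.28 (SE 0.09, 95% interval -0.49 to -0.08, limma adjusted p = 0.035). This call was lost without 2-HG(-) 1, 2 or 3 (-0.32, -0.28 and -0.26, adjusted p = 0.053, 0.068 and 0.12) and without 2-HG(+) 2 or 3 (-0.29 and -0.26, adjusted p = 0.1 in both). It was also lost with edgeR's quasi-likelihood test (-0.27, adjusted p = 0.052) and DESeq2 (-0.27, adjusted p = 0.057) on the recovered reads, with the direction kept.

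Gpc3, the glypican that restrains hedgehog signals and growth of the embryo, lies on chromosome X (52272426 to 52613950, reverse strand, GRCm38), 107173 bases from Gpc4. It had 0 reads in all 12 libraries. A count of 0 allows up to 3 reads, or 0.41 to 0.464 RPM in the IDH2 mutant experiment and 0.163 to 0.201 RPM in the 2-HG experiment, by counting error only. Thus the neighbouring gene Gpc4 was detected in each library while Gpc3 was not detectable at this depth with the targets used.

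**Figure D2:**
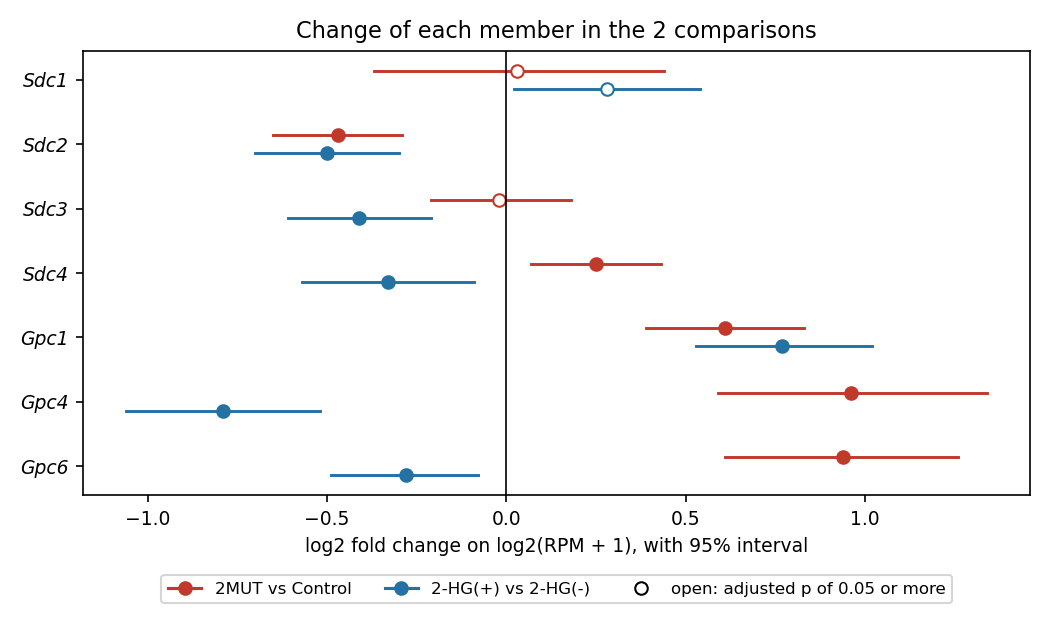
Log2 fold change on log2(RPM + 1) of the 7 members tested (horizontal axis), in 2MUT against Control and in 2-HG(+) against 2-HG(-). Points are limma estimates from 3 libraries a group, and bars are 95% intervals. Gpc4 was at 0.96 in 2MUT and -0.79 with 2-HG, whereas Sdc2 was at -0.47 and -0.50.

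The changes in the separate experiments were set against each other by the contrast of the changes, fitted with limma over the 12 libraries for 9594 genes. Of the 7 members, 4 differed (Sdc3, Sdc4, Gpc4 and Gpc6), against 39.4% of all genes. Gpc4 (1.75) and Gpc6 (1.22, SE 0.17, 95% interval 0.86 to 1.59, limma adjusted p = 8.2e-05) had the largest values among the members. Sdc3 differed by 0.39 (SE 0.12, limma adjusted p = 0.022), a call that was lost without 2MUT 2 (0.32, adjusted p = 0.063), 2-HG(-) 1 (0.36, 0.051) or 2-HG(+) 2 (0.36, 0.054). Sdc1 did not pass, at -0.25 with an interval of -0.75 to 0.26 (limma adjusted p = 0.44), and this value was -0.47 without Control 1 (adjusted p = 0.059) and -0.07 without Control 3 (0.81). Among all genes, 1.5% were higher in both experiments, as 1 member (Gpc1) was, and 3.06% were lower in both, as 1 member (Sdc2) was. The pattern of Sdc4, Gpc4 and Gpc6, higher in 2MUT and lower in 2-HG(+), was that of 4.2% of genes. The contrast compares a stable line with a treatment of 24 h. The source of 2-HG, the length of exposure, the vector and drug selection, the solvent, the depth and the table therefore cannot be told apart.

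The members also stood at unequal levels in the reference groups of the separate experiments, Control and 2-HG(-). Sdc3 was 1152 ± 48.3 RPM in Control and 225 ± 11.3 in 2-HG(-), and Sdc4 was 1764 ± 119 and 680 ± 81.4 RPM (SD, n = 3). Conversely, Sdc2 was 567 ± 22.8 and 1073 ± 19.1 RPM, Gpc6 was 31.1 ± 4.84 and 124 ± 4.92 RPM, and Gpc4 was 18.1 ± 2.8 and 48.8 ± 3.42 RPM. Gpc1 was at 84.5 ± 3.03 and 72.5 ± 7.29 RPM and was the member nearest to equal. These levels come from tables that were normalized separately over unequal sets of entries, and they were not tested.

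The members were next compared over the 12 libraries after log2(RPM + 1) had been centred within each table, which describes how they moved together across groups and libraries. Gpc4 and Gpc6 were the most alike (Pearson's r = 0.86), followed by Sdc4 and Gpc4 (0.80), Sdc2 and Sdc3 (0.70) and Sdc3 and Sdc4 (0.69). Sdc2 and Gpc1 were the most opposed (-0.95), and Sdc3 and Gpc1 were at -0.71. The 12 points share 4 group means and the library depths, so these values describe the group pattern and carry no p-value.

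**Figure D3:**
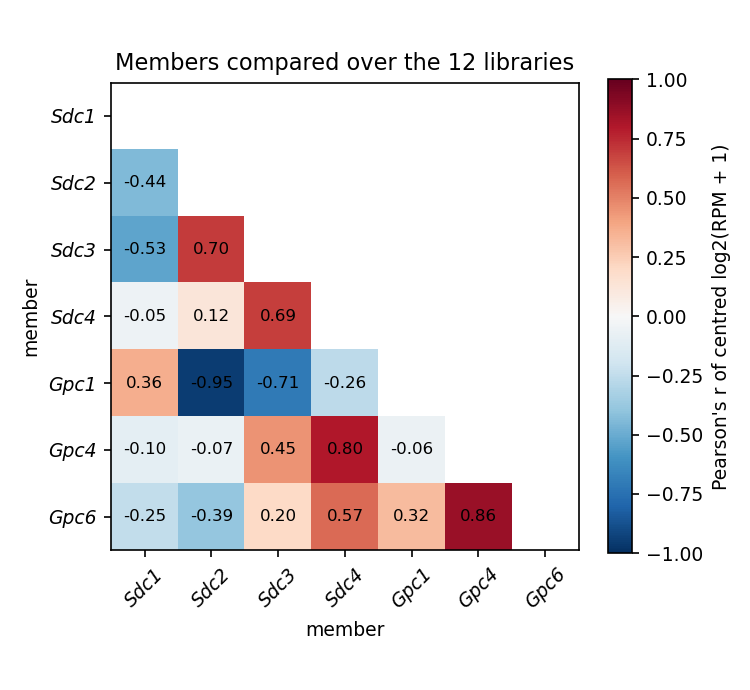
Pearson's r of log2(RPM + 1), centred within each table, between each pair of the 7 detected members over the 12 libraries. Red squares mark members with the same pattern and blue squares members with opposite ones. The darkest red square is Gpc4 with Gpc6 (0.86) and the darkest blue square is Sdc2 with Gpc1 (-0.95).

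By the same measure over 9593 other genes, the genes with the most similar patterns were Car9, a carbonic anhydrase, and Il6st, the shared receptor subunit of the IL-6 family (r = 0.99 for each), for Sdc2. Those for Gpc1 were Gm13889 and Cep170 (0.96 each), and those for Sdc4 were Mgat5 (0.97), which branches N-glycans, and Sspn (0.95). For Sdc3 they were Pmp22 and Sema3f (0.95 each). For Gpc4 they were 9530068E07Rik and Psd3 (0.98 each), for Gpc6 Tor1aip1 (0.99) and Dlec1 (0.98), and for Sdc1 Plekhj1 (0.97) and Slc25a1 (0.90). These genes were the highest of 9593 over the same 12 points, and such values describe only a likeness of pattern.

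Genes that build, modify, release and bind heparan sulfate were then examined as 9 lists of 74 genes in all, written from general knowledge with earlier results of these data known. In 2MUT cells 15 of the 53 tested were higher and 9 were lower (45.3%), with a median log2 fold change of 0.08. With 2-HG, 4 of 54 were higher and 15 were lower (35.2%), with a median of -0.19. The figures with 2-HG include Hpse as a lower gene. It passed the filter on the mean only through the 2-HG(-) group, so it is no evidence of a change. Beside these shares, 33.8% and 32.8% of all genes were called, and their medians were 0.01 and -0.02.

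Among the other proteoglycans with heparan sulfate, the direction differed by gene. In 2MUT, 1 of 6 was higher and 2 were lower. Tgfbr3 (betaglycan, a co-receptor for TGF-β) was 588 ± 26.4 RPM in Control and 902 ± 37.2 in 2MUT (SD, n = 3; log2 fold change 0.62, limma adjusted p = 0.00025). Cd44, a hyaluronan receptor with heparan sulfate on some isoforms, was at 317 ± 15.4 and 182 ± 5.25 RPM (-0.79, limma adjusted p = 7.4e-05), and the basement membrane proteoglycan Agrn at 86.5 ± 8.73 and 53.8 ± 3.02 RPM (-0.67, limma adjusted p = 0.0013). With 2-HG, 4 of 6 were lower, a count that was 2 without 2-HG(-) 3, in the unmoderated test and with the replicate block, and 3 without 2-HG(-) 1 or any one of the 2-HG(+) libraries. No gene of this list was higher by limma's adjusted p with all libraries, although 1 was in 1 of the 6 fits without 1 library. By an unadjusted p under 0.05 and by DESeq2 1 was higher, and none by edgeR. Tgfbr3 was 210 ± 15.3 RPM in 2-HG(-) and 107 ± 8.1 in 2-HG(+) (-0.96, limma adjusted p = 0.00011), the same directions as for Gpc4, with a difference between the changes of 1.58 (SE 0.13, limma adjusted p = 6.2e-07). Col18a1, the collagen that yields endostatin, was at 21.4 ± 1.54 and 14.2 ± 1.34 RPM (-0.56, limma adjusted p = 0.008), and Agrn at 21.3 ± 3.12 and 14.1 ± 2.83 RPM (-0.57, limma adjusted p = 0.026). The call for Agrn with 2-HG was lost in 4 of the 6 fits that left out 1 library (adjusted p up to 0.096). Gpc2 had 0 reads in the IDH2 mutant experiment, and Gpc5, which lies 400135 bases from Gpc6, had 0 reads there and 1 read in the 2-HG experiment.

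**Figure D4:**
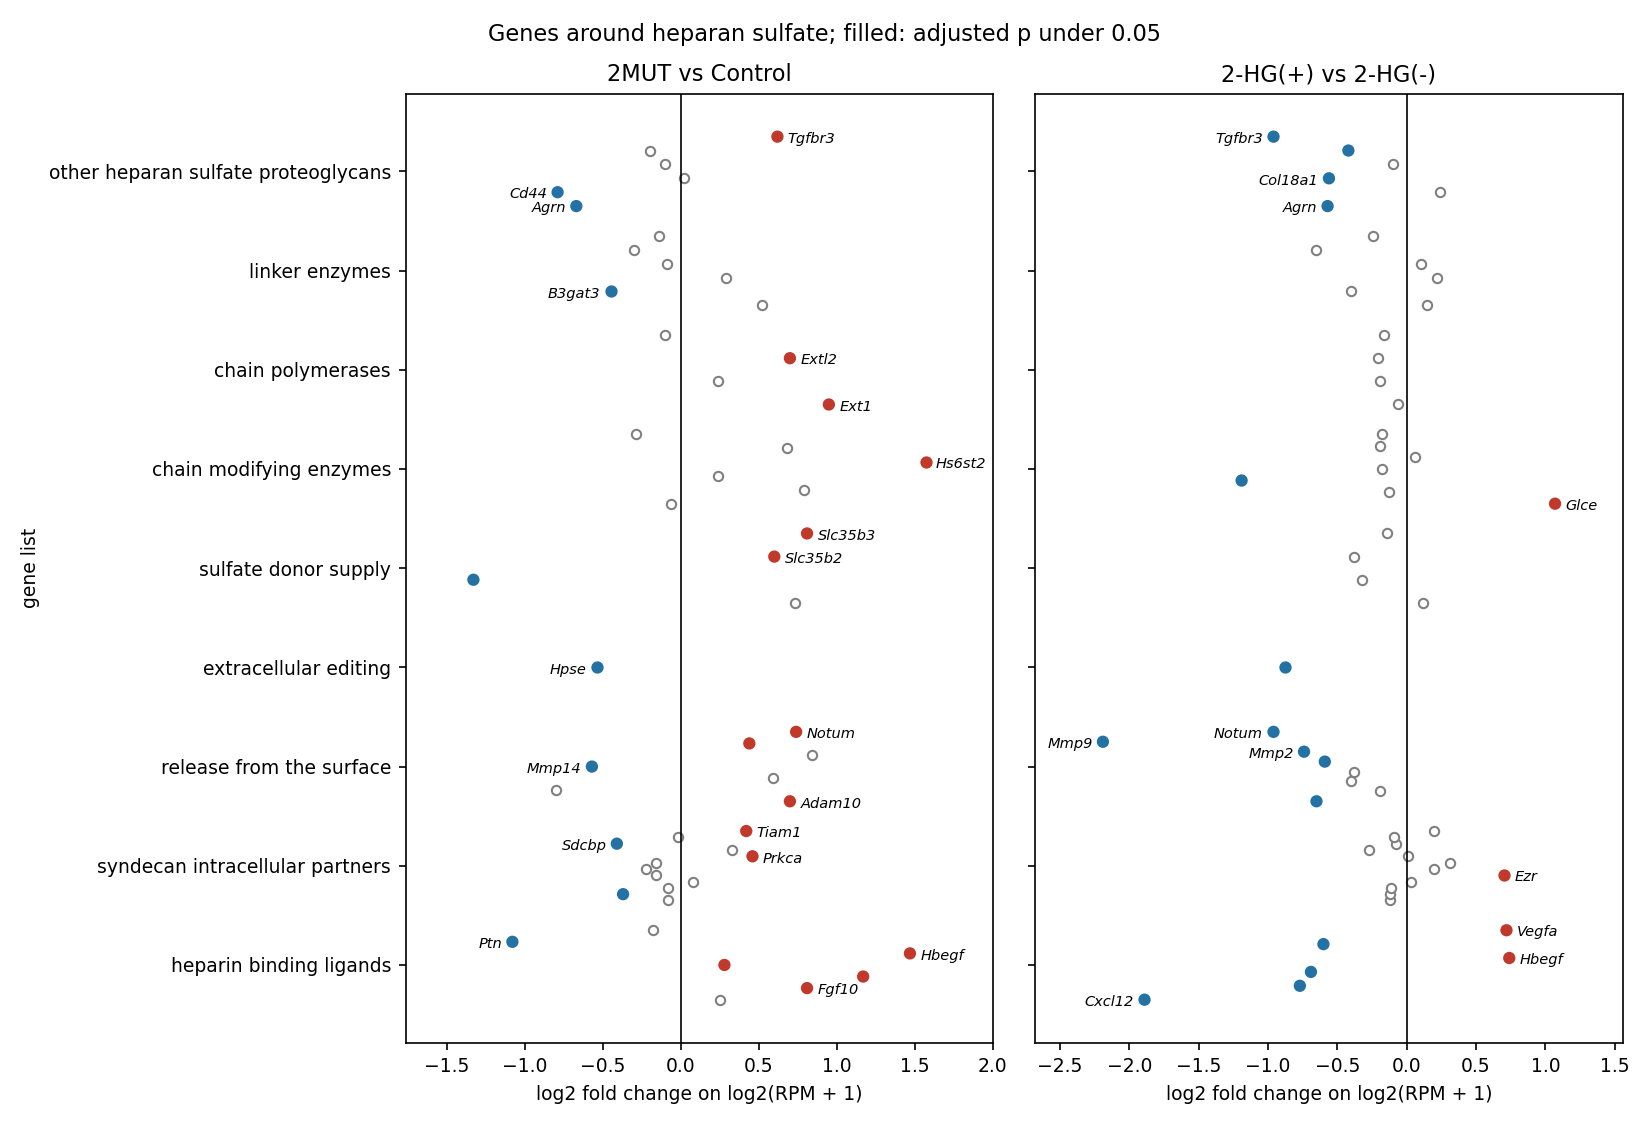
Log2 fold change on log2(RPM + 1) (horizontal axis) of genes of the 9 lists, in 2MUT against Control and in 2-HG(+) against 2-HG(-). Each point is a gene, filled red if higher and filled blue if lower at a limma adjusted p under 0.05, and the named genes are those described. Tgfbr3 and Notum lay to the right of 0 in 2MUT (0.62 and 0.74) and to the left with 2-HG (both -0.96).

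Among the linker enzymes and the chain polymerases with their relatives, Ext1 and Extl2 were higher and B3gat3 was lower in 2MUT. B3gat3, which completes the linker, was 71.9 ± 2.7 RPM in Control and 52.6 ± 6.15 in 2MUT (-0.45, limma adjusted p = 0.014), the only one of 6 linker enzymes called, and without 2MUT 1 its adjusted p was 0.066. Of 4 chain polymerases and their relatives, 2 were higher in 2MUT. The polymerase Ext1 was at 45.6 ± 5.49 and 89.0 ± 9.37 RPM (0.95, limma adjusted p = 0.00028), and Extl2 at 15 ± 3.17 and 24.7 ± 2.01 RPM (0.70, limma adjusted p = 0.011). With 2-HG, 0 of 6 linker enzymes and 0 of 4 polymerases passed limma's adjusted test. By an unadjusted p under 0.05 these were 2 and 0, and edgeR and DESeq2 called 0 of each, but the unmoderated test gave 1 lower in each list, and 1 linker enzyme was lower with the replicate block and without 2-HG(+) 3. For Ext1 the difference between the changes was 1.01 (SE 0.22, limma adjusted p = 0.0022).

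Of the enzymes that sulfate and epimerize the chain, 6 of the 16 listed were high enough to test in 2MUT and 7 of the 14 listed in the other table with 2-HG. Hs6st2, a 6-O-sulfotransferase, was 2.75 ± 0.585 RPM in Control and 10.1 ± 1.54 in 2MUT (1.57, limma adjusted p = 0.00024), the only one called there by limma or edgeR. DESeq2 and an unadjusted p under 0.05 gave 2 higher enzymes, the unadjusted p also gave 1 lower, and without 2MUT 3 limma gave 2 higher. Glce, the epimerase that makes iduronic acid, was 48.6 ± 2.47 RPM in 2-HG(-) and 103 ± 3.32 in 2-HG(+) (1.07, limma adjusted p = 4.1e-05), and 1 other enzyme was lower. The change of Glce differed between the experiments by -1.13 (SE 0.23, limma adjusted p = 0.0014). Slc35b2 and Slc35b3, the Golgi carriers of the sulfate donor PAPS, were higher in 2MUT, at 58.5 ± 8.96 and 88.6 ± 8.74 RPM (0.60, limma adjusted p = 0.0057) and at 18.9 ± 4.35 and 33.7 ± 5.66 RPM (0.81, limma adjusted p = 0.0063). In the list of donor supply 2 of 4 were higher and 1 was lower in 2MUT, and 0 of 4 passed with 2-HG by limma's adjusted test, where 1 was lower by an unadjusted p under 0.05, by edgeR and by DESeq2.

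3 genes of these lists, chosen after their values were seen, rested on Control library 3. Papss1, which makes PAPS, was at 223 and 196 RPM in Control 1 and 2 but at 14.9 RPM in Control 3, and at 127 to 163 RPM in 2MUT. Its log2 fold change was 0.73 (limma adjusted p = 0.48) with this library and -0.52 (limma adjusted p = 0.0045) without it. Ndst1, which begins sulfation of the chain, was at 114.5, 93.0 and 23.0 RPM in Control, and Mmp16 at 31.96, 28.1 and 1.64 RPM. Without Control 3 their log2 fold changes turned from 0.68 to -0.03 and from 0.84 to -0.35 (limma adjusted p = 0.92 and 0.11).

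Heparanase, which cuts the chains, was lower in 2MUT, and of the enzymes that release proteoglycans from the surface, Adam10, Notum and Mmp2 were higher in 2MUT and lower with 2-HG. Heparanase (Hpse) was 57.3 ± 4.6 RPM in Control and 39.1 ± 2.05 in 2MUT (-0.54, limma adjusted p = 0.0053), and it was the only one of 3 genes of extracellular editing that was tested in either experiment. With 2-HG it was at 1.88 ± 0.403 and 0.572 ± 0.277 RPM, and since Hpse passed the filter on the mean only through the 2-HG(-) group, no change is read from its test there. Of 7 genes of release tested in 2MUT, 3 were higher and 1 was lower, beside 33.8% of all genes called. With 2-HG, 5 of 8 were lower, beside 32.8% of all genes called, and none was higher, also by an unadjusted p under 0.05, edgeR and DESeq2. By an unadjusted p 6 were lower, and in the unmoderated test 3 were, without Adam10 (adjusted p = 0.056) and Mmp2 (0.16). The count of lower genes in 2MUT was not stable, at 2, 3 and 2 without 2MUT 1, 2 and 3. It was 0 to 2 over the alternatives that kept all libraries. Adam10, a sheddase, was 209 ± 26 RPM in Control and 338 ± 23.9 in 2MUT (0.70, limma adjusted p = 0.00074). The membrane protease Mmp14, which cleaves Sdc1, was at 259 ± 34.6 and 174 ± 10.6 RPM (-0.57, limma adjusted p = 0.0029). In the unmoderated test Mmp14 did not pass (adjusted p = 0.051). Notum, now best known for removing the lipid from Wnt proteins, was at 53.5 ± 7.33 and 89.8 ± 4.26 RPM (0.74, limma adjusted p = 0.00096).

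With 2-HG, Notum was 121 ± 13 RPM in 2-HG(-) and 61.2 ± 3.44 in 2-HG(+) (-0.96, limma adjusted p = 0.00018), and its changes differed by 1.71 between the experiments (SE 0.17, limma adjusted p = 3.4e-06). The gelatinase Mmp9 was at 11.2 ± 1.47 and 1.69 ± 0.551 RPM (-2.19, limma adjusted p = 2.6e-05), a change that log2(RPM + 1) understates at so low a level. In the IDH2 mutant experiment, Mmp9 had 13, 13 and 12 reads in Control and 0, 0 and 1 read in 2MUT libraries, a lower level in all 3, but its mean was under 1 RPM and it was not tested. The related Mmp2 was at 402 ± 57.8 RPM in 2-HG(-) and 246 ± 71.5 in 2-HG(+) (-0.74, limma adjusted p = 0.022). It did not pass without 2-HG(-) 1 (-0.64, adjusted p = 0.077) or 2-HG(-) 3 (-0.72, 0.073), nor in the unmoderated test (adjusted p = 0.16). Without 2-HG(+) 1 it was -0.47 (limma adjusted p = 0.022). In 2MUT, Mmp2 was higher, at 40.3 ± 3.15 RPM in Control and 55.4 ± 9.53 in 2MUT (0.44, limma adjusted p = 0.038), a call that was lost in every fit without 1 library other than that without 2MUT 2 (0.34 to 0.47, adjusted p = 0.055 to 0.15). The changes of Mmp2 differed by 1.18 (SE 0.28, limma adjusted p = 0.0044). Adam10 was 230 ± 23.7 RPM in 2-HG(-) and 147 ± 22 in 2-HG(+) (-0.65, limma adjusted p = 0.0041), and its change differed between the experiments by 1.35 (SE 0.18, limma adjusted p = 6.1e-05).

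Of the genes listed as intracellular partners of syndecans, direct or indirect, 2 of 12 were higher and 2 were lower in 2MUT (33.3%), beside 33.8% of all genes called. Syntenin (Sdcbp), the PDZ protein that binds the last residues of the tail, was 422 ± 45 RPM in Control and 316 ± 19.6 in 2MUT (-0.41, limma adjusted p = 0.0088). Prkca, the kinase bound by Sdc4, was at 46.4 ± 6.01 and 63.9 ± 5.45 RPM (0.46, limma adjusted p = 0.019), and Tiam1, which binds syndecan tails and activates Rac, at 40.4 ± 6.12 and 54.3 ± 5.15 RPM (0.42, limma adjusted p = 0.039). The calls for Prkca and Tiam1 were lost in 4 and 5 of 6 fits without 1 library (adjusted p up to 0.075 and 0.14). With 2-HG, 1 of 12 was higher (8.33%, beside 32.8% of all genes called), the membrane linker Ezr at 6.12 ± 0.793 and 10.6 ± 0.853 RPM (0.70, limma adjusted p = 0.0046).

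Of the ligands that bind heparan sulfate, 4 of 7 were higher and 1 was lower in 2MUT, beside 33.8% of all genes called, and with 2-HG 2 of 6 were higher and 4 were lower, beside 32.8%. The list is short and was written with earlier results known, so nothing particular to it is read from these counts. Hbegf, a heparin-binding ligand of the EGF receptor, was higher in both experiments, at 20.1 ± 3.81 and 57.2 ± 7.38 RPM in Control and 2MUT (1.47, limma adjusted p = 6.6e-05) and at 27.5 ± 2.46 and 46.6 ± 3.43 RPM in 2-HG(-) and 2-HG(+) (0.74, limma adjusted p = 0.0011). Fgf10 was 39.3 ± 3.68 RPM in Control and 69.7 ± 3.11 in 2MUT (0.81, limma adjusted p = 0.00041), and pleiotrophin (Ptn), a ligand of syndecans, was at 182 ± 28.4 and 84.9 ± 6.28 RPM (-1.08, limma adjusted p = 8.5e-05). With 2-HG, Fgf10 was lower, at 5.47 ± 0.513 RPM in 2-HG(-) and 2.78 ± 0.152 in 2-HG(+) (-0.77, limma adjusted p = 0.0025), and its changes differed by 1.59 (SE 0.18, limma adjusted p = 1.1e-05). Ptn was lower in both experiments, with 1560 ± 192 RPM in 2-HG(-) and 1020 ± 22.6 in 2-HG(+) (-0.60, limma adjusted p = 0.003), and its changes differed by -0.48 (SE 0.17, limma adjusted p = 0.035).

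In the 2-HG experiment, the chemokine Cxcl12 was 94.9 ± 5.43 RPM in 2-HG(-) and 24.9 ± 2.48 in 2-HG(+) (-1.89, limma adjusted p = 4.1e-06). Vegfa, whose longer forms bind heparan sulfate, was at 34.5 ± 2.98 and 58.2 ± 11.9 RPM (0.72, limma adjusted p = 0.005). The changes of these genes also differed between the experiments, by 2.14 for Cxcl12 (SE 0.17, limma adjusted p = 4.6e-07) and by -0.90 for Vegfa (SE 0.18, limma adjusted p = 0.0013).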

How the data were processed

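RNA-seq values of 12 MEF libraries were analysed. From Ion AmpliSeq reads aligned with TMAP, the authors counted reads by gene (AmpliSeqRNA plug-in), and a table of RPM was deposited for each experiment. Each value was a whole multiple of the worth of 1 read (100% of values, within 0.05 reads), and 0 columns were left without a group. Repeated names (4 entries a table) were kept out of matches between tables.

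limma 3.58.1 (R 4.3.3) was fitted to log2(RPM + 1) with a mean-variance trend, keeping genes whose mean over the 6 libraries compared was 1 RPM or more, and p-values were adjusted by Benjamini-Hochberg over all genes tested. Alternatives were an added value of 0.1, a filter at 10 RPM or none, quantile normalization, median-of-ratios scaling, an unmoderated test, edgeR 4.0.16 and DESeq2 1.42.0 on recovered reads, a block for the replicate number, and fits without each single library. In simulated data at these depths, 85 of 93 genes changed 2-fold and 103 of 106 changed 3-fold were recovered for 2MUT (11071 genes), and 101 of 104 and 96 of 96 for 2-HG (10381 genes). The simulation gave every gene the same dispersion and held no library with a set of low genes. These shares therefore do not cover genes with a wider spread, such as Sdc1 in Control. Sequences were aligned with Biopython 1.88, tables handled with pandas 2.3.3, and plots drawn with matplotlib 3.10.9.

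The members and lists were chosen with earlier results of these data known. Named were all members, Idh2, up to 3 genes per list and comparison with the largest change among those past the threshold (higher group at 10 RPM or more), and the 2 genes most like each member. Names of 3 genes that rest on Control library 3 were added after their values were seen, as were values in the other experiment for Adam10, Hpse, Mmp2, Mmp9, Fgf10 and Ptn.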

Additional observations from a re-analysis of the deposited data

Results flagged for a closer look

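The changes of 4 members differed between the experiments by a test of the difference itself, limma's contrast of the change in 2MUT minus the change with 2-HG on the log2 scale. The difference was 1.75 for Gpc4 and 1.22 for Gpc6, both higher in 2MUT but lower with 2-HG. It was 0.58 for Sdc4, with the same directions. It was 0.39 for Sdc3, which was lower in 2-HG(+) and did not pass the test in 2MUT.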

How the results depend on the processing

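Gpc1, Gpc4 and Sdc2 kept their calls in both experiments, as did Gpc6 in 2MUT, Sdc3 with 2-HG, and the differences for Sdc4, Gpc4 and Gpc6, under the alternatives run. With 1 library left out, the log2 fold changes in 2MUT ranged from -0.19 to 0.20 for Sdc1, -0.50 to -0.44 for Sdc2, -0.0834 to 0.0246 for Sdc3, 0.19 to 0.29 for Sdc4, 0.58 to 0.66 for Gpc1, 0.82 to 1.08 for Gpc4 and 0.83 to 1.05 for Gpc6. With 2-HG they ranged from 0.20 to 0.36 for Sdc1, -0.53 to -0.46 for Sdc2, -0.45 to -0.37 for Sdc3, -0.42 to -0.25 for Sdc4, 0.71 to 0.85 for Gpc1, -0.86 to -0.70 for Gpc4 and -0.32 to -0.26 for Gpc6. The differences ranged from -0.47 to -0.07 for Sdc1, -0.0081 to 0.0567 for Sdc2, 0.32 to 0.43 for Sdc3, 0.50 to 0.67 for Sdc4, -0.24 to -0.10 for Gpc1, 1.61 to 1.87 for Gpc4 and 1.12 to 1.33 for Gpc6. Members higher with 2-HG ranged from 1 to 2 and members lower from 3 to 4.

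Without a filter on low values, Sdc4 was not called in 2MUT (0.25, adjusted p = 0.14) or with 2-HG (-0.33, 0.079). In the unmoderated test it was not called either (0.25, 0.064, and -0.33, 0.095), and the lists gave 9 higher and 5 lower genes in 2MUT in place of 15 and 9. With median-of-ratios scaling, Sdc4 (-0.30, 0.059) and Gpc6 (-0.25, 0.065) were not called with 2-HG and Sdc1 was (0.31, 0.042), which gave 2 higher and 3 lower members, and the difference for Sdc2 was -0.0039. With DESeq2, Sdc1 was called with 2-HG (0.30, 0.045), giving 2 higher members, and Gpc6 was not (-0.27, 0.057). With edgeR, Gpc6 was not called (-0.27, 0.052), and Sdc1 in 2MUT was at -0.003. The cause was not tested. Without Control replicate 3, Papss1, Ndst1 and Mmp16 turned in 2MUT to -0.5151, -0.0264 and -0.3485, from a highest value of 1.393, 1.108 and 1.472 with another library left out.

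Replicate numbers did not pair the libraries: deviations of libraries with the same number correlated at 0.0708, 0.0293 and 0.0319 in the IDH2 mutant experiment and at -0.457, -0.158 and 0.0572 in the 2-HG experiment. With the replicate number as a block, Sdc4 (-0.33, adjusted p = 0.088) and Gpc6 (-0.28, 0.12) were not called with 2-HG, leaving 3 lower members, nor was the difference for Sdc3 (0.39, 0.053). Depth limits what can be said of Gpc3, and the spread between 3 libraries limits Sdc1 in 2MUT.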
